A study of Mus musculus with 24 samples.

Results

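The contractile genes of smooth muscle and the marker genes of pericytes were followed in mouse hearts treated with insulin-like growth factor 1 (IGF1) or vehicle after a heart attack. The 10 genes were taken by symbol, 4 smooth muscle genes (Myh11, Cnn1, Smtn and Lmod1) and 6 pericyte genes (Rgs5, Pdgfrb, Cspg4, Kcnj8, Abcc9 and Notch3), and all 10 were among the 15875 genes tested. All mice were male C57BL6/J animals whose left anterior descending coronary artery was closed for 45 min and then reopened, and the tissue was the area at risk in the anterior wall of the heart. The 3 IGF1 groups, taken at 24, 48 and 168 h of reperfusion, had 40 ng/g of IGF1 under the skin as reperfusion began and 1 µg/g per day from a pump over at most the first 3 days, dissolved in phosphate-buffered saline with albumin. The 3 vehicle groups at the same times had the saline with albumin only. Each of the 6 groups had 4 arrays. The labels of the vehicle samples name ischemia, while the design text of the series speaks of sham surgery, and the sample labels were followed.

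Smooth muscle cells form the wall of arteries and veins and contract through smooth muscle myosin and the actin-binding proteins of the contractile apparatus. Many of these genes are switched on by serum response factor (SRF) with its partner myocardin at a DNA motif called the CArG box. Pericytes sit on capillaries under the basement membrane, are recruited by platelet-derived growth factor (PDGF) through its receptor PDGFRB, and share Notch3 signalling with smooth muscle. After an infarct, new vessels in the granulation tissue and scar gain a coat of these mural cells.

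Messenger RNA was measured on 1-colour Agilent arrays, and a level is given here as log2 of the probe's signal relative to the 75th percentile of its array, so that levels of 1 gene can be compared between arrays but not levels of different genes. A gene was called changed at an adjusted p under 0.05 in limma's moderated test over all 15875 genes. Between 52.7 and 62.9% of spots on an array were well above background, and arrays of 1 group correlated across genes with r of 0.983 to 0.993. No label ties a sample to an animal, and the p-values therefore rest on the spread among samples, which may be technical. The 24 arrays lay on 4 slides, and each slide held 1 IGF1 and 1 vehicle array of 24 h. Of the markers of the labelled tissue, all 7 cardiomyocyte genes listed (Myh6, Tnnt2, Actn2, Ryr2, Ttn, Myl2 and Actc1) were well above background on all arrays of every group, whereas Myh1, Myh2, Myh4 and Actn3 of skeletal muscle were above background on 0 arrays. Mylpf, also on the skeletal muscle list, was well above background on all arrays of every group except vehicle at 168 h. There it was above background on some arrays, and its group means lay between -3.60 and -3.07. In bulk tissue, fewer cells of a type and less RNA per cell cannot be told apart.

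Of the members, all except Lmod1 were well above background on all 24 arrays. Lmod1, leiomodin 1, an actin nucleator of smooth muscle, was above background on 13 of the 24 arrays and on 0 of the 4 vehicle arrays of 48 h, so its values at the low end carry little information. Myh11 was read by 3 probes and Cnn1 and Smtn by 2 each, and the brightest probe stands for the gene.

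The upstream sequences of 4 members are shown because the results turn on them: Cnn1 and Rgs5 moved in opposite directions with IGF1, Smtn rose in both treatments, and Kcnj8 fell over time in the IGF1 hearts. Upstream windows of 250 bases were matched for 8 of the 10 members in the RefSeq promoter table (GRCm38.p6), all but Myh11 and Pdgfrb. Bases that lie inside the annotated gene span are left out, which shortened the Cnn1 window to 218 bases. The sequences run 5′ to 3′ on the gene's strand at chr9:22099003-22099220 (plus strand), chr11:3539293-3539542 (minus strand), chr1:169655251-169655500 (plus strand) and chr6:142571615-142571864 (minus strand), in lower case, with capitals for a match to TGGGAA, the core letters of the motif of RBPJ, the DNA-binding partner of Notch, read here on the opposite strand.
Cnn1: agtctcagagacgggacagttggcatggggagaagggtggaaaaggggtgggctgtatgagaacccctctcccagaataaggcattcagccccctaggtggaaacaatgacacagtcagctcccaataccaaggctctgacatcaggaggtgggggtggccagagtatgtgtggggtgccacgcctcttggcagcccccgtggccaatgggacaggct
Smtn: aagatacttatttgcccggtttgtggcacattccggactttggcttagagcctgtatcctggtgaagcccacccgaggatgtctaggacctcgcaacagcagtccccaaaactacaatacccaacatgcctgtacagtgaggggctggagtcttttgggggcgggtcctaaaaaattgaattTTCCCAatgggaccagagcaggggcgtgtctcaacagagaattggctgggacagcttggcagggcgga
Rgs5: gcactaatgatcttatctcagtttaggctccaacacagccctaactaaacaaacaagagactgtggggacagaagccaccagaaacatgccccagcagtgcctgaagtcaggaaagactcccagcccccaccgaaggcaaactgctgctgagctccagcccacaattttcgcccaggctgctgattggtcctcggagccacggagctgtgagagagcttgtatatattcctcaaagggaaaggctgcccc
Kcnj8: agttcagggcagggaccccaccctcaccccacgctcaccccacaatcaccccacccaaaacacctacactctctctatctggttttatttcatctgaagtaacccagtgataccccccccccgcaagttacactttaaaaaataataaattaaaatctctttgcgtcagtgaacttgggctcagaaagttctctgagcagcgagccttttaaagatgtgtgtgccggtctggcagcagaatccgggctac
Of the 8 windows of 250 bases, 0 held a CArG box on either strand, against 1.47% of all 32851 promoter windows of that length. TGGGAA or its complement stood in the Smtn window, starting 68 bases before the table's start site, and in the Abcc9 window, starting 221 bases before it, against 21.6% of all promoter windows. All 250 bases of the Abcc9 window lie inside the annotated span of the gene. A match is a run of letters, and no match says only that these letters are absent from this window. Guanine and cytosine made up 58.7% of the Cnn1 sequence, 53.2% of Smtn, 53.6% of Rgs5 and 49.2% of Kcnj8.

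The comparison of IGF1 with vehicle at 24 h asked how the treatment changed mural cell genes in the first day of reperfusion. At that time Cnn1, calponin 1, which binds actin and restrains smooth muscle myosin, was lower in IGF1 hearts, and Rgs5, a regulator of G protein signalling that marks pericytes, was higher. These were 2 of the 10 members (16% of all genes tested were called), 1 in each direction (8.78% of all genes were called higher and 7.21% lower), and the same 2 had groups without overlap (18.4% of all genes did). The other 3 smooth muscle and 5 pericyte genes did not pass the test. At an unadjusted p under 0.05 there were 5 of the 10 members and 4801 of the 15875 genes.

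Cnn1 levels were 1.79, 1.53, 1.92 and 2.07 on the 4 IGF1 arrays of 24 h, against 3.24, 3.10, 3.10 and 2.20 on the 4 vehicle arrays. All IGF1 values lay below all vehicle values, and the lowest vehicle array came close to the highest IGF1 array. Levels averaged 1.83 ± 0.23 in IGF1 hearts and 2.91 ± 0.48 in vehicle hearts (SD, n = 4 each), a log2 difference of -1.09 ± 0.25 (SE), so that IGF1 hearts had 0.471 times the vehicle signal (adjusted p = 0.00757). The second Cnn1 probe differed by -0.996. Within slides the difference was negative on 4 of 4, at -1.45, -1.58, -1.18 and -0.13 on slides 1 to 4. Under the 19 alternatives the log2 difference ran between -1.32 and -0.98, with adjusted p from 0.00347 to 0.0377. These include leaving out each array of the compared groups, and the authors' values, which are on the same scale as those used here.

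The Cnn1 groups of 48 and 168 h lay close together. Cnn1 read 2.51, 2.95, 2.52 and 2.39 in IGF1 hearts at 48 h, against 2.32, 2.40, 2.92 and 2.37 in vehicle hearts, and the groups overlapped. At 168 h it read 3.45, 2.55, 3.41 and 2.88 in IGF1 hearts and 3.46, 2.82, 3.21 and 2.38 in vehicle hearts, again overlapping. The IGF1 difference was 0.08 ± 0.25 at 48 h and 0.11 ± 0.25 at 168 h, and neither passed the test (adjusted p = 0.950 and 1.000). Over time Cnn1 rose in the IGF1 hearts, by 0.76 ± 0.25 between 24 and 48 h (adjusted p = 0.0212) and by 1.25 ± 0.25 between 24 and 168 h (2.37-fold, adjusted p = 0.000234). In the vehicle hearts the 168 h level differed from that of 24 h by 0.05 ± 0.25 (adjusted p = 0.869). Whether the IGF1 difference itself varied between the 3 times was asked by an F-test, which gave an adjusted p of 0.0589 for Cnn1. The rise between 24 and 48 h lost its call without replicate 2 of the IGF1 arrays of 24 h (adjusted p = 0.0619) or of 48 h (adjusted p = 0.0716).

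At 24 h limma called 0 of the other 3 smooth muscle members, with 1, Smtn, at an unadjusted p under 0.05. Myh11, the heavy chain of smooth muscle myosin, read -0.13, 0.34, -0.13 and -0.05 in IGF1 hearts and 0.44, 0.06, 0.41 and -0.10 in vehicle hearts at 24 h, and the groups overlapped (difference -0.19 ± 0.12, adjusted p = 0.3). Its 2 further probes differed by -0.09 and -0.01. Smtn, smoothelin, a cytoskeletal protein of contractile smooth muscle, had a difference of 0.23 ± 0.11 (adjusted p = 0.159) and Lmod1 one of -0.14 ± 0.34 (adjusted p = 0.827).

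Myh11 rose over time in the IGF1 hearts. It read 0.57, 0.47, 0.40 and 0.55 there at 48 h and 0.60, 0.43, 0.78 and 0.60 at 168 h, all above the 4 IGF1 values of 24 h. The rise was 0.49 ± 0.12 between 24 and 48 h (adjusted p = 0.00365) and 0.60 ± 0.12 between 24 and 168 h (1.51-fold, adjusted p = 0.00027), with 0.59 and 0.49 for the 2 further probes over 24 to 168 h. In vehicle hearts the 168 h values of 0.34, 0.35, 0.47 and 0.54 overlapped those of 24 h, with a difference of 0.23 ± 0.12 (adjusted p = 0.116). That comparison passed the test when the mean of the 3 probes was used (adjusted p = 0.02) and without replicate 1 of the vehicle arrays of 24 h (adjusted p = 0.0448). The F-test on the IGF1 difference across times gave 0.225 for Myh11.

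Smtn was higher at 168 h than at 24 h in both treatments. It read 4.33, 4.37, 4.33 and 4.51 in IGF1 hearts at 168 h, against 4.30, 4.02, 3.89 and 3.90 at 24 h, a rise of 0.35 ± 0.11 (1.28-fold, adjusted p = 0.00764). In vehicle hearts it read 4.17, 4.62, 4.47 and 4.71 at 168 h, against 3.90, 3.80, 3.61 and 3.89 at 24 h, a rise of 0.69 ± 0.11 (1.61-fold, adjusted p = 1.27e-05). In both treatments all 168 h arrays lay above all 24 h arrays. The vehicle steps were 0.38 ± 0.11 between 24 and 48 h (adjusted p = 0.0162) and 0.31 ± 0.11 between 48 and 168 h (adjusted p = 0.0187). Each step lost its call when single arrays were left out: the first without replicate 3 of 24 h (adjusted p = 0.0696) or replicate 4 of 48 h (0.0529), the second without replicate 2 of 48 h (0.0578) or replicate 2 or 4 of 168 h (0.0604 and 0.0778). The second also lost it with slide as a block (0.187), with the mean of both probes (0.0536) and with the arrays of the compared groups alone (0.0831). The second probe of Smtn differed by 0.41 in IGF1 hearts and by 0.45 in vehicle hearts between 168 and 24 h.

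Lmod1 was called in the vehicle hearts, lower at 48 h, where it was not well above background on any of the 4 arrays. It read -5.06, -4.11, -4.09 and -4.59 in IGF1 hearts at 48 h, against -5.36, -6.51, -4.93 and -5.02 in vehicle hearts, and the difference did not pass the test (adjusted p = 0.414). With 1 of the 4 IGF1 arrays and 0 of the 4 vehicle arrays above background, no size can be given for it. In vehicle hearts the 48 h values lay below all those of 24 h (-4.07, -4.73, -3.66 and -4.14; adjusted p = 0.0094), and all those of 168 h (-4.20, -4.11, -4.53 and -4.33) lay above them (adjusted p = 0.0071). The lowest signal called well above background on those 48 h arrays averaged -4.15, close to the mean of -4.15 at 24 h and above the mean of -4.29 at 168 h, so no bound on the size of the difference can be given against 24 or 168 h. Lmod1 was above background on 2 of the 4 vehicle arrays of 24 h and on 3 of the 4 of 168 h. With normexp background correction both calls were lost (adjusted p = 0.102 and 0.724).

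**Figure D1:**
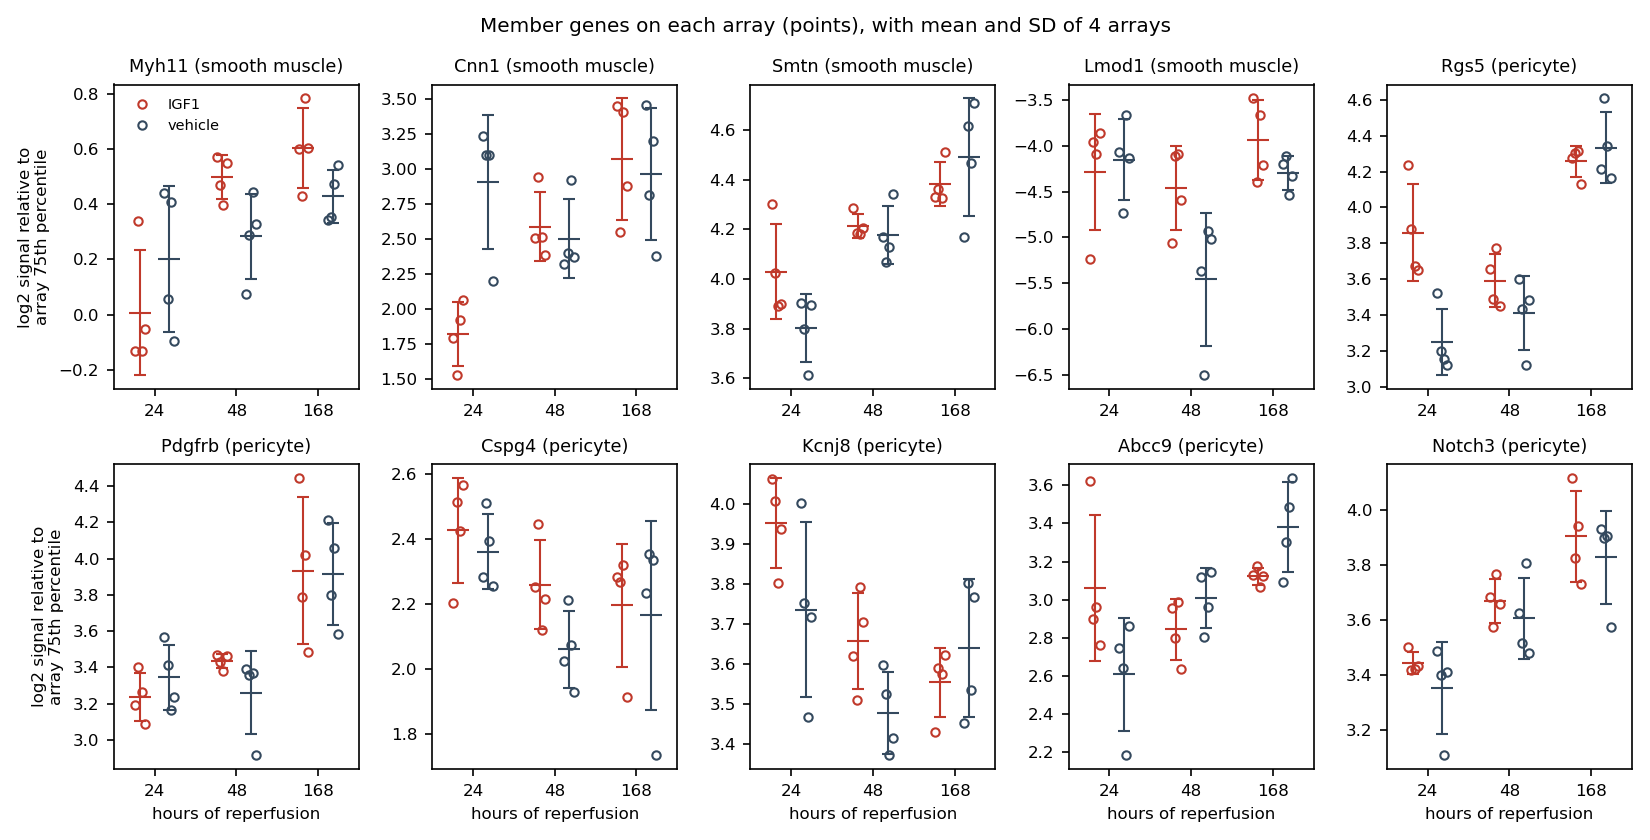
Log2 signal relative to the array's 75th percentile (vertical axes, a scale of its own for each gene) of the 10 members on each of the 24 arrays at 24, 48 and 168 h of reperfusion, IGF1 in red and vehicle in dark blue, with points for arrays and bars for mean and SD of 4 arrays. At 24 h the 4 IGF1 arrays lie below the 4 vehicle arrays for Cnn1 and above them for Rgs5; the groups of Rgs5 overlap at 48 and 168 h.

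Among the pericyte genes, Rgs5 was the one called at 24 h. It read 4.24, 3.88, 3.67 and 3.65 on the IGF1 arrays, against 3.52, 3.199, 3.16 and 3.12 on the vehicle arrays, and every IGF1 value lay above every vehicle value. Levels averaged 3.86 ± 0.27 in IGF1 hearts and 3.25 ± 0.19 in vehicle hearts (SD, n = 4 each), a difference of 0.61 ± 0.13 (1.53-fold, adjusted p = 0.00564). Within slides the difference was 0.71, 0.68, 0.52 and 0.53, positive on 4 of 4. With the arrays of the 2 compared groups fitted alone the same difference had an adjusted p of 0.055, the only loss of the call among 19 alternatives, whose adjusted p began at 0.00128.

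At 48 h Rgs5 read 3.66, 3.49, 3.77 and 3.45 in IGF1 hearts and 3.60, 3.43, 3.12 and 3.48 in vehicle hearts, and the difference of 0.18 ± 0.13 did not pass the test (adjusted p = 0.727). At 168 h the values were 4.27, 4.31, 4.32 and 4.13 in IGF1 hearts and 4.21, 4.61, 4.34 and 4.17 in vehicle hearts, with a difference of -0.08 ± 0.13. The mean level was highest at 168 h in both treatments. Rgs5 rose by 0.67 ± 0.13 between 48 and 168 h in IGF1 hearts (1.59-fold, adjusted p = 0.000335) and by 0.92 ± 0.13 in vehicle hearts (1.90-fold, adjusted p = 7.76e-06), with no overlap between the 2 times in either. Between 24 and 168 h the rise was 0.40 ± 0.13 in IGF1 hearts (adjusted p = 0.0145) and 1.08 ± 0.13 in vehicle hearts (2.12-fold, adjusted p = 6.26e-07). The smaller of these rises lost its call with slide as a block (adjusted p = 0.0996) and without replicate 3 or 4 of the IGF1 arrays of 24 h (0.0535 and 0.0562). The F-test on the IGF1 difference across times gave an adjusted p of 0.0715 for Rgs5.

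Kcnj8 and Abcc9 encode a pore (Kir6.1) and a sulfonylurea receptor (SUR2) of ATP-sensitive potassium channels. They are neighbours on chromosome 6 with 0 annotated genes between them, and neither passed the test between treatments at 24 h. Which cells of the tissue carried their signals was not tested. At 24 h Kcnj8 read 4.06, 4.01, 3.80 and 3.94 in IGF1 hearts and 4.003, 3.75, 3.47 and 3.72 in vehicle hearts (difference 0.22 ± 0.10, adjusted p = 0.16). Abcc9 read 3.62, 2.90, 2.96 and 2.76 in IGF1 hearts and 2.75, 2.64, 2.18 and 2.86 in vehicle hearts (difference 0.45 ± 0.16, adjusted p = 0.0637). Both genes had overlapping groups. The Abcc9 difference passed the test with slide as a block (adjusted p = 0.0434) and without replicate 4 of the vehicle arrays (0.0451) or of the IGF1 arrays (0.0353), and within slides it was positive on 3 of 4, between -0.09 and 0.87.

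Kcnj8 fell over time in the IGF1 hearts, to 3.43, 3.59, 3.57 and 3.62 at 168 h, all below the 24 h values. The change was -0.40 ± 0.10 (0.758-fold, adjusted p = 0.00232), negative on both slides that held the 2 times, and with quantile normalization it missed the threshold (adjusted p = 0.0994). The step between 24 and 48 h was -0.30 ± 0.10 (adjusted p = 0.0293). It was not called with quantile normalization (0.115), slide as a block (0.108) or no filter on dim probes (0.052), nor without either of replicates 1 and 2 of 24 h (0.0785 and 0.063) or of 48 h (0.066 and 0.0947). In vehicle hearts Kcnj8 read 3.45, 3.80, 3.53 and 3.77 at 168 h, a difference of -0.10 ± 0.10 from 24 h (adjusted p = 0.441). Abcc9 instead rose in vehicle hearts, to 3.09, 3.30, 3.49 and 3.64 at 168 h, by 0.77 ± 0.16 over 24 h (1.71-fold, adjusted p = 0.000374). In IGF1 hearts Abcc9 read 3.13, 3.17, 3.06 and 3.13 at 168 h and differed from 24 h by 0.06 ± 0.16 (adjusted p = 0.767). The F-tests on the IGF1 difference across times gave 0.326 for Kcnj8 and 0.105 for Abcc9, so the contrast between treatments in these time courses was not called.

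Pdgfrb, the receptor through which PDGF-B recruits pericytes, rose in both treatments. It read 4.44, 3.79, 4.02 and 3.49 at 168 h in IGF1 hearts, against 3.19, 3.40, 3.26 and 3.09 at 24 h, and 4.21, 3.80, 4.06 and 3.58 at 168 h in vehicle hearts, against 3.57, 3.42, 3.16 and 3.24 at 24 h. In each treatment the groups of 168 and 24 h did not overlap. The rises were 0.70 ± 0.16 in IGF1 hearts (1.62-fold, adjusted p = 0.00105) and 0.57 ± 0.16 in vehicle hearts (1.48-fold, adjusted p = 0.00529), and the steps between 48 and 168 h were 0.50 ± 0.16 in IGF1 hearts (adjusted p = 0.0162) and 0.65 ± 0.16 in vehicle hearts (adjusted p = 0.00219). The IGF1 step after 48 h lost its call without replicate 1 of 168 h (adjusted p = 0.0862). IGF1 and vehicle hearts differed by -0.11 ± 0.16 at 24 h, 0.18 ± 0.16 at 48 h and 0.02 ± 0.16 at 168 h.

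Notch3, the receptor of the Notch family found on mural cells, was also higher at 168 h than at 24 h in both treatments. It read 4.12, 3.83, 3.94 and 3.73 at 168 h in IGF1 hearts, against 3.50, 3.42, 3.42 and 3.43 at 24 h, and 3.93, 3.90, 3.91 and 3.57 in vehicle hearts, against 3.49, 3.40, 3.11 and 3.41 at 24 h. All arrays of 168 h lay above all those of 24 h. The rises were 0.46 ± 0.10 in IGF1 hearts (1.38-fold, adjusted p = 0.000484) and 0.48 ± 0.10 in vehicle hearts (1.39-fold, adjusted p = 0.000332). Across the 24 arrays Notch3 and Pdgfrb correlated with r = 0.82, which describes points that share group and slide. IGF1 and vehicle hearts differed by 0.06 to 0.09 at the 3 times, and the F-test gave 0.992.

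Cspg4, which encodes the NG2 proteoglycan of pericytes and of other immature mesenchymal and glial cells, was called in 0 of the 9 comparisons of groups. Its levels spanned 1.73 to 2.57 over the 24 arrays. The nearest to a call was the difference between 48 and 24 h in vehicle hearts, where it read 2.03, 2.21, 2.08 and 1.93 at 48 h, against 2.28, 2.51, 2.40 and 2.26 at 24 h. Those groups did not overlap, and the difference of -0.30 ± 0.13 had an unadjusted p of 0.0263 and an adjusted p of 0.0904, or 0.0467 with slide as a block.

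**Figure D2:**
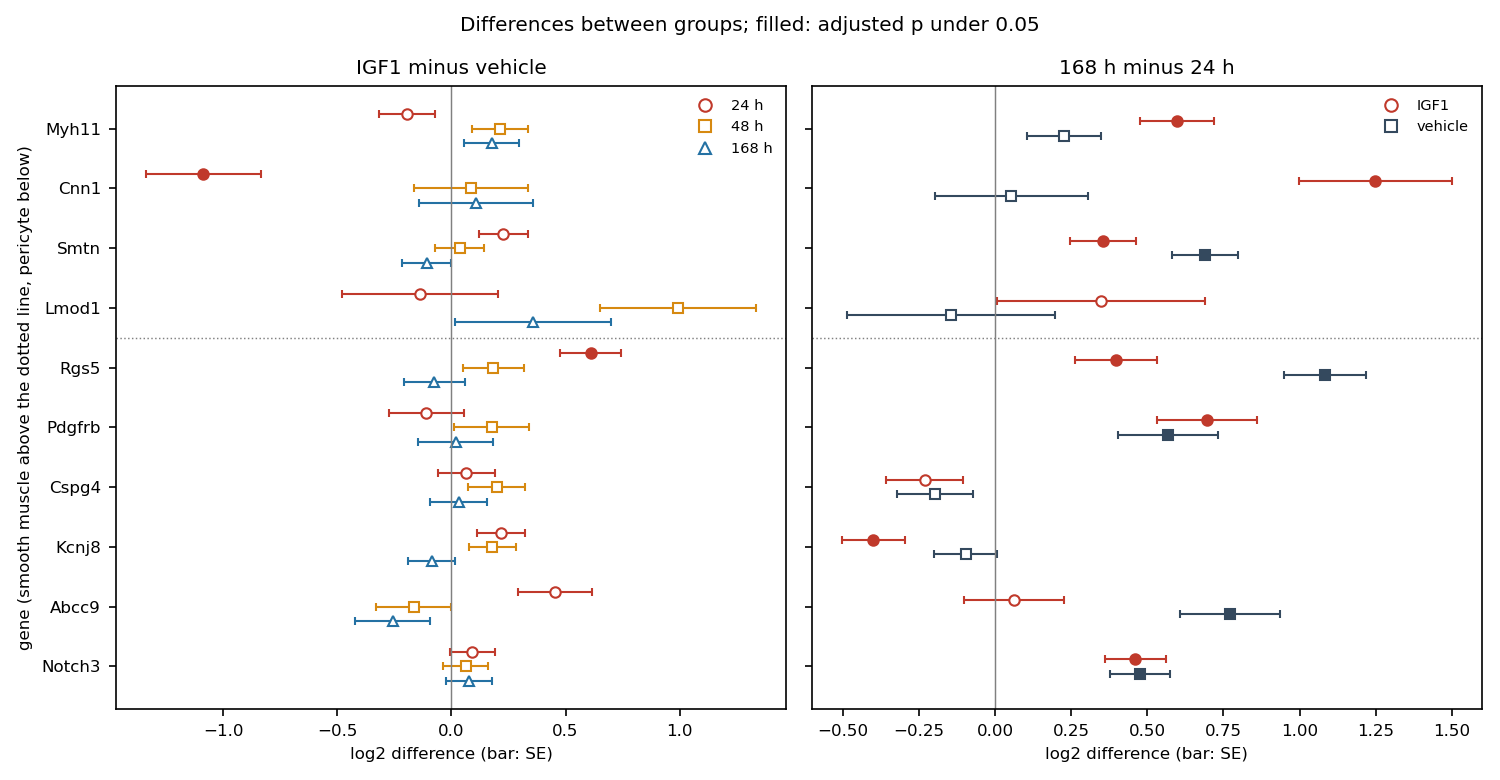
Log2 differences with SE (horizontal axes) of the 10 members (vertical axis), IGF1 minus vehicle at 24, 48 and 168 h on the left and 168 h minus 24 h in IGF1 and vehicle hearts on the right, with filled symbols for an adjusted p under 0.05. On the left Cnn1 at -1.09 and Rgs5 at 0.61, both at 24 h, are the filled symbols. On the right 7 members are filled in IGF1 hearts and 5 in vehicle hearts.

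After the first day no member was called between treatments. At 48 h limma called 0 of 10 members (0.0126% of all genes), with 1 at an unadjusted p under 0.05, against 1413 of the 15875 genes. That member was Lmod1, which was above background on 1 of the 4 IGF1 arrays and 0 of the 4 vehicle arrays. At 168 h it called 0 of 10 (0% of all genes), with 0 at an unadjusted p under 0.05 against 611 of the 15875 genes. The F-test called 0 of 10 (5.66% of all genes) and had 3 at an unadjusted p under 0.05, which were Cnn1, Rgs5 and Abcc9, against 3618 of the 15875 genes. Cnn1 was called by it under 9 and Rgs5 under 4 of 34 alternatives.

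More members were called between times than between treatments. Between 24 and 168 h limma called 7 of 10 members in IGF1 hearts (58.5% of all genes) and 5 of 10 in vehicle hearts (60.2%), shares near those of the array. In IGF1 hearts Myh11, Cnn1, Smtn, Rgs5, Pdgfrb and Notch3 rose (24.6% of all genes did) and Kcnj8 fell (34% did). In vehicle hearts Smtn, Rgs5, Pdgfrb, Abcc9 and Notch3 rose (28.1% of all genes did) and no member fell (32.1% did). The groups of 168 and 24 h were apart for all of these members (52% of all genes in IGF1 hearts and 52.8% in vehicle hearts) except Rgs5 in IGF1 hearts. On slides 1 and 4, which held both times, all the mean differences had the direction of the fit, from 0.06 to 0.48 for Rgs5, 0.82 to 1.35 for Cnn1, 0.66 to 0.73 for Myh11, 0.04 to 0.61 for Smtn, 0.40 to 0.89 for Pdgfrb, 0.30 to 0.46 for Notch3 and -0.53 to -0.32 for Kcnj8 in IGF1 hearts. In vehicle hearts they ran from 0.86 to 1.05 for Rgs5, 0.52 to 0.82 for Smtn, 0.34 to 0.46 for Pdgfrb, 0.55 to 0.78 for Abcc9 and 0.16 to 0.42 for Notch3. Between 24 and 48 h the counts were 3 in IGF1 hearts (37.6% of all genes) and 2 in vehicle hearts (22.7%), and between 48 and 168 h they were 2 (48.7%) and 4 (53.2%). The 3 time steps within a treatment share arrays. No slide held IGF1 arrays of both 48 and 168 h, so that step has no within-slide value. Median differences between 168 and 24 h were 0.48 in IGF1 hearts and 0.14 in vehicle hearts over the 4 smooth muscle members, 0.23 and 0.52 over the 6 pericyte members, and -0.09 and -0.03 over all genes.

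Markers of other cell types moved with time. Between 24 and 168 h, 24.6% of all genes were called higher and 34% lower in IGF1 hearts, and 28.1% and 32.1% in vehicle hearts. The summed linear signal of the 6 fibroblast markers ran from 946 to 1139 times the 75th percentile at 168 h in IGF1 hearts, against 158 to 227 at 24 h, and from 943 to 1113 in vehicle hearts, against 151 to 230 at 24 h. Of the 4 mesothelial markers, 1 was called higher at 168 h than at 24 h in IGF1 hearts and 3 in vehicle hearts, with summed signals of 1.55 to 3.73 against 1.36 to 2.86 and 2.46 to 7.42 against 1.20 to 2.04. Of the 2 atrial markers measured, Myl7 and Myl4, 1 and 2 were called higher, with summed signals of 2.11 to 2.92 against 1.24 to 1.63 in IGF1 hearts and 2.42 to 3.16 against 1.13 to 1.20 in vehicle hearts. Of the 6 leukocyte markers, 4 were higher and 0 lower at 168 h than at 24 h in IGF1 hearts, and 1 was higher and 2 lower in vehicle hearts. Of the 7 cardiomyocyte markers, 0 were higher and 2 lower in IGF1 hearts, and 2 higher and 0 lower in vehicle hearts. Of the 6 endothelial markers, 3 were called in IGF1 hearts and 4 in vehicle hearts, with median differences of -0.21 and -0.17. Of the 5 activated fibroblast markers, 3 and 4 were called, with medians of 1.87 and 0.90. The part of these cells in the changes of the members over time was not tested.

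At 24 h the marker lists differed between treatments as well. Of all genes, 8.78% were called higher and 7.21% lower in IGF1 hearts at that time. Of 6 leukocyte markers, 4 were lower in IGF1 hearts (Ptprc by -0.86 ± 0.12, Adgre1, Lyz2 and Cd68) and 0 higher, with a mean log2 level of 3.54 to 3.76 in IGF1 hearts, against 4.07 to 4.16 in vehicle hearts, and a summed signal of 170 to 185 in IGF1 hearts, against 169 to 199 in vehicle hearts. Of 5 activated fibroblast markers, 1 was lower (Fn1, fibronectin, by -0.79 ± 0.15), with a summed signal of 119 to 142 in IGF1 hearts, against 176 to 192 in vehicle hearts. Of 7 cardiomyocyte markers, 2 were higher (Ryr2 and Ttn), with a summed signal of 1765 to 2036 in IGF1 hearts, against 1516 to 2090 in vehicle hearts. Of 6 endothelial markers limma called 0, with 2 at an unadjusted p under 0.05. The part of these cells in the Cnn1 and Rgs5 differences was not tested.

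The smooth muscle and pericyte genes were also set against each other on each array, as the mean of each set after every gene was centred on its mean over the 24 arrays. At 24 h the smooth muscle mean was -0.50, -0.20, -0.29 and -0.17 in IGF1 hearts, against 0.19, -0.13, 0.18 and -0.22 in vehicle hearts, and the groups overlapped. The pericyte mean was 0.16, 0.04, -0.05 and -0.07 in IGF1 hearts, against -0.04, -0.16, -0.40 and -0.21 in vehicle hearts, and these overlapped too. The smooth muscle mean minus the pericyte mean was -0.66, -0.25, -0.23 and -0.10 in IGF1 hearts, against 0.24, 0.03, 0.58 and -0.01 in vehicle hearts, with every IGF1 array below every vehicle array. Without Lmod1 it lay between -0.56 and -0.35 in IGF1 hearts and between -0.18 and 0.38 in vehicle hearts. At 48 h with all members it lay between -0.07 and 0.29 in IGF1 hearts and between -0.45 and 0.15 in vehicle hearts, and at 168 h between -0.13 and 0.30 in IGF1 hearts and between -0.08 and 0.05 in vehicle hearts, overlapping at both times. These set means describe the members and were not tested, and at 24 h they carry the Cnn1 and Rgs5 differences already given.

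**Figure D3:**
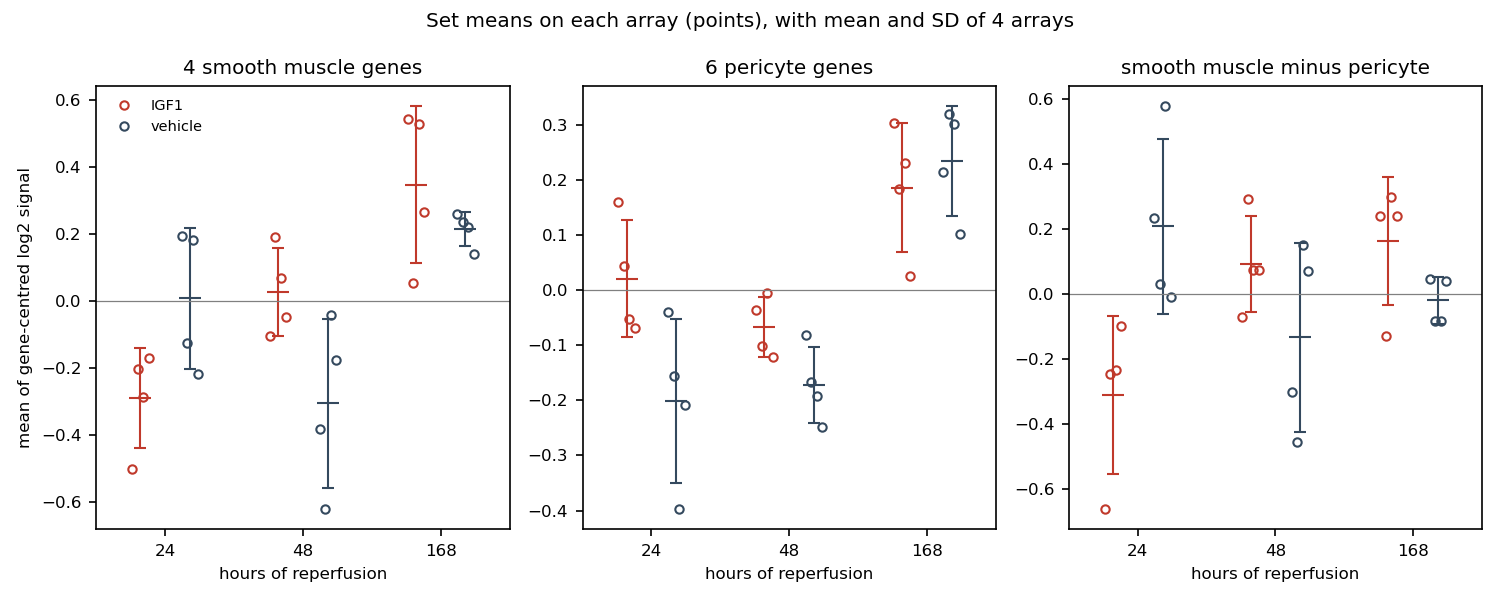
Mean of the gene-centred log2 signal (vertical axes) of the 4 smooth muscle genes, of the 6 pericyte genes and the first minus the second, on each array at 24, 48 and 168 h, IGF1 in red and vehicle in dark blue, with bars for mean and SD of 4 arrays. In the right panel the IGF1 arrays of 24 h lie between -0.66 and -0.10 and the vehicle arrays between -0.01 and 0.58.

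The members of a set did not vary as 1 block across the 24 arrays. The 6 pairs of smooth muscle genes correlated with r of -0.08 to 0.58 (median 0.26), the 15 pairs of pericyte genes with r of -0.49 to 0.82 (median 0.12) and the 24 pairs between the sets with r of -0.58 to 0.82 (median 0.20). Lmod1, above background on 13 of the 24 arrays, is in 3 of the 6 smooth muscle pairs, and the 3 pairs without it had r of 0.09 to 0.58 (median 0.48). Smtn and Abcc9, of different sets, stood at 0.82, and Cspg4 and Abcc9, of the same set, at -0.49. Among all named genes outside the members, those whose levels ran closest to the smooth muscle mean over the 24 arrays were Rapgef6 (r = 0.83), Map7d2, Gpr161, Sprn and Cracd (r = 0.79). With Lmod1 left out of the smooth muscle mean, a choice made after its background was seen, 0 of these 5 genes stayed among the closest 5, which were led by Fam171a2 and Synm (r = 0.89). Those closest to the pericyte mean were Colec11 (r = 0.93), Ctsf, Pth1r, Rgs4 and Slc44a1 (r = 0.92). The arrays share groups and slides, and these values are descriptions.

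Further genes of the 2 cell types were read from lists, which were chosen with earlier results of these data known. Of 15 other smooth muscle genes, 1 was called at 24 h between treatments (16% of all genes were). Synpo2, synaptopodin 2, an actin-bundling protein, was higher in IGF1 hearts by 0.49 ± 0.13 (1.41-fold, adjusted p = 0.0143). Of the 15, 11 had a negative difference and 4 a positive one, and 0 were called lower (7.21% of all genes were). Among the negative ones were Tagln, transgelin, at -0.37 ± 0.16 and Acta2, smooth muscle actin, at -0.21 ± 0.10, which did not pass the test. Acta2 is also on the activated fibroblast list. The median of the 15 was -0.16, against 0.01 over all genes. Over 24 to 168 h the list split. In IGF1 hearts 4 rose (24.6% of all genes did) and 5 fell (34% did). In vehicle hearts 5 rose (28.1% of all genes did) and 5 fell (32.1% did). Myl9, a regulatory light chain of myosin, rose by 1.44 ± 0.12 in IGF1 hearts and 1.17 ± 0.12 in vehicle hearts, and Itga8, an integrin of smooth muscle, by 1.22 ± 0.15 and 0.97 ± 0.15. Myocd, myocardin, fell by 1.10 in IGF1 hearts and by 0.73 in vehicle hearts, each ± 0.11. Which cells of the tissue carried the changes of the listed genes, Synpo2 and Myocd among them, was not tested.

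The 17 other pericyte genes had a median difference of 0.21 at 24 h. Of them, 4 were higher in IGF1 hearts (8.78% of all genes were) and 0 lower (7.21% were). They were Colec11, a collectin, at 0.98 ± 0.26 (1.97-fold, adjusted p = 0.0152), Ednra, the endothelin A receptor, at 0.57 ± 0.17 (adjusted p = 0.0261), Vtn, vitronectin, at 0.46 ± 0.15 (adjusted p = 0.0398) and Rgs4 at 0.42 ± 0.14 (adjusted p = 0.0464). Colec11 and Rgs4 are the same genes that ran close to the pericyte mean on these arrays. At 48 and 168 h limma called 0 of the 17 between treatments, with 4 and 1 at an unadjusted p under 0.05. Over 24 to 168 h, 11 rose (24.6% of all genes did) and 1 fell (34% did) in IGF1 hearts, with a median of 0.59. In vehicle hearts 14 rose (28.1% of all genes did) and 2 fell (32.1% did), with a median of 0.95. Gucy1a1 and Gucy1b1, the subunits of the nitric oxide receptor guanylyl cyclase, rose by 2.40 ± 0.17 and 1.07 ± 0.11 in IGF1 hearts and by 2.57 ± 0.17 and 1.22 ± 0.11 in vehicle hearts. Tbx18, a transcription factor of mural cells, rose by 1.43 ± 0.12 and 1.41 ± 0.12, and Anpep, an aminopeptidase also found on fibroblasts and myeloid cells, by 2.62 ± 0.16 and 1.83 ± 0.16. Cox4i2, a subunit of cytochrome c oxidase, fell by 0.45 in IGF1 hearts and by 0.34 in vehicle hearts, each ± 0.09.

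**Figure D4:**
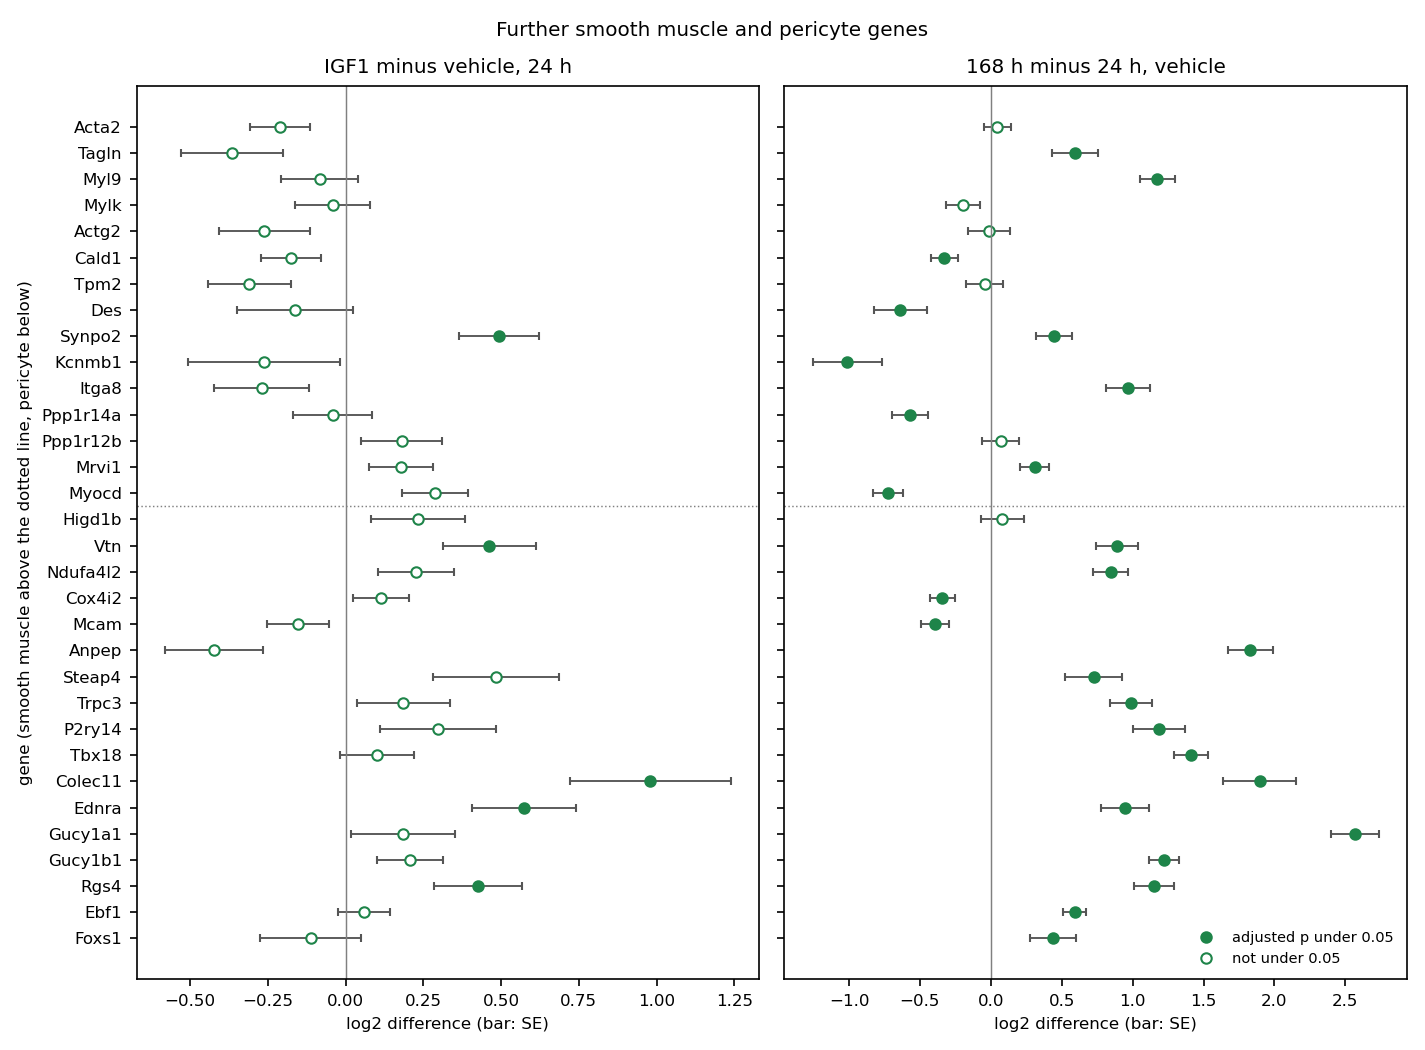
Log2 differences with SE (horizontal axes) of 15 further smooth muscle genes and 17 further pericyte genes (vertical axis), IGF1 minus vehicle at 24 h on the left and 168 h minus 24 h in vehicle hearts on the right, with filled symbols for an adjusted p under 0.05. On the left 1 smooth muscle and 4 pericyte genes are filled, all to the right of 0; on the right 14 pericyte genes are filled to the right of 0 and 2 to the left.

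The pathways around the members were read in the same way. Of 5 PDGF ligands and receptors other than Pdgfrb, 1 was higher in IGF1 hearts at 24 h (8.78% of all genes were) and 0 lower (7.21% were). It was Pdgfd, a ligand of PDGFRB, at 0.62 ± 0.14 (1.54-fold, adjusted p = 0.00775). Pdgfb, the ligand that endothelial cells release to recruit pericytes, differed by 0.03. Between 24 and 168 h in vehicle hearts 2 of the 5 rose (28.1% of all genes did) and 2 fell (32.1% did). Pdgfc and Pdgfd rose by 1.02 ± 0.17 and 0.66 ± 0.14, and Pdgfa and Pdgfb fell by 0.70 and 0.51. Of 12 Notch ligands, receptors and targets other than Notch3, limma called 0 between treatments at 24, 48 or 168 h. Of all genes it called 16%, 0.0126% and 0% at these times. At an unadjusted p under 0.05 there were 1, 0 and 0 of the 12. Over 24 to 168 h in vehicle hearts 4 of the 12 rose (28.1% of all genes did) and 2 fell (32.1% did). In IGF1 hearts 3 rose (24.6% of all genes did) and 2 fell (34% did). Heyl, a Notch target of mural cells, led in vehicle hearts at 1.70 ± 0.15 (3.25-fold) and stood at 1.34 ± 0.15 in IGF1 hearts.

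At 24 h, 8.78% of all genes were called higher and 7.21% lower in IGF1 hearts. Both other subunits of ATP-sensitive potassium channels were higher in IGF1 hearts at that time. Kcnj11 (Kir6.2), the pore of the cardiomyocyte channel, differed by 0.72 ± 0.22 (1.64-fold, adjusted p = 0.0306) and Abcc8 (SUR1) by 0.86 ± 0.23 (1.82-fold, adjusted p = 0.0152). Of 5 genes of the SRF pathway, 2 were called (16% of all genes were). Mrtfa, a coactivator of SRF, was lower by -0.35 ± 0.07 (adjusted p = 0.00427). Klf4, a repressor of smooth muscle genes, was higher by 0.61 ± 0.15 (1.52-fold, adjusted p = 0.0125), and Srf itself differed by 0.05. Of 9 measured relatives of the members, 3 were called (16% of all genes were). Rgs4, already counted among the other pericyte genes, was higher, and Cnn2 and Myh9 were lower, by -0.37 ± 0.10 and -0.32 ± 0.10. Of the 4 angiopoietin genes, 1 was called (16% of all genes were). Angpt1, which mural cells release to act on the endothelial receptor Tek, was higher by 1.26 ± 0.40 (2.40-fold, adjusted p = 0.0356) with overlapping groups.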

How the data were processed

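RNA of each of the 24 samples was read on 1 array of the SurePrint G3 Mouse GE 8x60K design. Per the file headers, spots were quantified with Feature Extraction 12.0.3.2, and the deposited processed signal is an intensity that was background-corrected within the array and not scaled between arrays. The authors' deposited value table holds log2 values. Compared through differences between arrays, they matched the scale used here with a residual SD of at most 8.70e-07. Control spots and outlier-marked spots (53 to 130 per array) were left out, and the log2 signal minus the array's 75th percentile (370 to 619 before log2, over probe means) was used. A probe had to be well above background on at least 4 arrays. Of 56605 probes, 33767 (59.7%) matched 1 symbol, 0 matched several and 22838 none, through accessions in the RefSeq table. Of several probes of a gene, the one with the highest mean level was used.

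The model, fitted with limma 3.58.1 (R 4.3.3), had a mean for each of the 6 groups and 18 residual degrees of freedom; eBayes p-values were two-sided and adjusted by Benjamini-Hochberg over 15875 genes. The difference of the IGF1 effect between times was a moderated F-test. The fit was tested on simulated data. Alternatives were normexp background correction of the median signals (offset 50), quantile normalization, the authors' deposited log2 values, the mean of probes, no or a stricter filter on dim probes, slide or replicate number as a block, array weights, the compared groups alone, each array left out and, chosen after seeing the data, a percentile over spots. The members and gene lists were chosen with earlier results of these data known. Of each list, counts are given, with up to 4 genes of smallest p as examples. Some further genes, among them Pdgfb and Srf at 24 h and Cox4i2 over time, are named outside this rule. At 168 h same-numbered IGF1 and vehicle arrays deviated together with r of 0.186 to 0.502. They also lay on the same slide, so pairing by number and a shared slide cannot be told apart. For 48 and 24 h in vehicle hearts r was 0.052 to 0.382, and in the other comparisons it ran from -0.075 to 0.264. A bound is given where 0 arrays of a group were above background: the brighter group's mean against the lowest signal above background on the dim arrays. The number of arrays limits the precision.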

Additional observations from a re-analysis of the deposited data

Results flagged for a closer look

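A single array stood apart from the other 3 of its group in 7 of the 60 combinations of member and group (11.7%), where chance gives about 1 in 20. At 24 h Myh11 read 0.341 on IGF1 replicate 2, against -0.132 to -0.0535 on the other 3, and Notch3 read 3.50 on IGF1 replicate 1, against 3.42 to 3.43. Cnn1 read 2.20 on replicate 4 of the 24 h vehicle arrays, against 3.10 to 3.24 on the others, and this is the vehicle array nearest to the IGF1 values. At 48 h Cnn1 read 2.92 on vehicle replicate 3, against 2.32 to 2.40, and Pdgfrb read 2.92 on vehicle replicate 4, against 3.36 to 3.39. At 168 h Cspg4 read 1.92 on IGF1 replicate 4, against 2.27 to 2.32, and Notch3 read 3.57 on vehicle replicate 4, against 3.90 to 3.93. The flagged replicate 4 arrays all lay on slide 4. Each flagged array of 48 or 168 h was the only array of its group on its slide, as was every array of 24 h. The part of the slides in these values was not tested.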

How the results depend on the processing

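Of 981 values of single members under alternatives other than leaving out an array, 943 stayed on the same side of the threshold, 11 lost the call, 27 gained it and 0 called values changed sign. Of the 943, 10 that were not called either way changed sign. The number of members called at 24 h between treatments was 1 with the compared groups alone. In vehicle hearts, 48 against 24 h gave 1 with normexp, 1 with probes above background on all 24 arrays (which tests 9 members) and 5 with slide as a block, and 168 against 48 h gave 7 with quantile normalization and 7 with array weights. In IGF1 hearts, 48 against 24 h gave 5 with array weights, and 168 against 48 h gave 4 with quantile normalization and 4 with array weights. The F-test, with 0 in the main fit, gave 1 with the mean of probes, 1 with the stricter filter, and 2 with slide as a block, with array weights and with the replicate block. The replicate block changed no other count of members by more than 1.5 times. At 168 h, where same-numbered arrays deviated together and shared a slide, it gave 0 members and 0 of all genes between treatments. Leaving out 1 array gave 2 to 3 members at 24 h between treatments, 0 to 0 at 48 h and at 168 h, 1 to 2, 3 to 5 and 5 to 6 for 48 against 24 h, 168 against 48 h and 168 against 24 h in vehicle hearts, 1 to 3, 1 to 3 and 6 to 7 in IGF1 hearts, and 0 to 2 by the F-test.

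Over all genes, 2538 were called at 24 h between treatments, but 952 with the compared groups alone, 1323 without vehicle replicate 2 and 1200 without IGF1 replicate 1. At 48 h the count of 2 became 55 with slide as a block, 1 with the stricter filter, 0 with the compared groups alone and 4 without IGF1 replicate 1. At 168 h the count of 0 became 1 with normexp, 1 with the stricter filter, 8 with array weights and 10 without IGF1 replicate 1. For 48 against 24 h in vehicle hearts 3596 became 2301 without replicate 3 of 24 h. The F-test's 898 became 407 with no filter, 1535 with slide as a block, 1784 with array weights and 338 to 1411 with 1 array left out. The causes were not tested. Signal over background limits the values of Lmod1.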
